A study of Mus musculus with 2 samples.

Results

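The clustered protocadherin genes were taken as the protein-coding genes of chromosome 18 whose symbol is Pcdha, Pcdhb or Pcdhg followed by a number, or by a, b or c and a number. This gave 57 of 21887 protein-coding genes with a position in GRCm38: 14 in the alpha cluster (36930285 to 37188897), 22 in the beta cluster (37264998 to 37521419) and 21 in the gamma cluster (37661775 to 37841873). Open chromatin was mapped by ATAC-seq: Tn5 transposase cuts accessible DNA and leaves adapters there, and more insertions in a window mean a more open window. Neural retinas of adult C57BL/6 littermates were used, with 1 library for the wild type and 1 for a knockout of Gabra3, the X-linked gene of the GABA-A receptor subunit alpha 3, each from 20000 nuclei. The kind of knockout allele is not given in the sources used here. With 1 library per genotype no difference was tested, every ratio compares these libraries and not the genotypes, and the exact 95% intervals (Clopper-Pearson) cover counting error only.

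Protocadherins of these clusters are cell surface proteins of the cadherin family that bind the same isoform on another cell or another branch of the same cell. In the alpha and gamma clusters each gene has its own promoter and its own large first exon, which is spliced to short exons shared by the whole cluster, while the beta genes stand alone, each in a single exon. A neuron is known to use a few of the alternate genes, picked largely at random through CTCF, cohesin and distant enhancers, whereas the C-type genes at the far end of the alpha and gamma clusters are used more generally. In the mouse retina the gamma protocadherins are known for the self-avoidance of starburst amacrine cell dendrites and for the survival of interneurons. The retina as a whole was measured here, so that a site open in few cells and a site weakly open in many cannot be told apart.

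The libraries held 7635799 wild-type and 7646373 knockout insertions after poorly placed reads and repeats were removed, or 3.10 and 3.11 per kb of the autosomes. The body of Gabra3 held 126 and 121 insertions (log2 ratio of knockout over wild type -0.06, -0.43 to 0.31, scaled to all autosomal insertions), which does not check the genotype label. Of 6 rod photoreceptor markers 5 had an open region at a gene end, beside 50.6% of all protein-coding genes. Gnat1 (157 wild-type and 137 knockout insertions) and Pde6b (94 and 98) had the most. The 5 retinal ganglion cell markers summed to 42 and 65. Of the 3 with at least 20 insertions summed 1 was 2-fold higher in the knockout library. It was Pou4f1, a transcription factor gene of these cells (10 and 23, log2 ratio 1.22, 0.13 to 2.50). Of all 11893 protein-coding genes with that many at the end with more insertions, 0.925% were 2-fold higher and 0.622% lower. The part of the ganglion cell counts in the results below was not tested. Markers of the retinal pigment epithelium (4), of vessels (3) and of microglia (3) had no open region and summed to 12 and 11, 12 and 13, and 17 and 12 insertions. Of the lens markers Mip had an open region (35 and 39) and Cryaa had none (10 and 11), and of 3 Muller glia markers 2 had one. The amacrine markers, of cells in which gamma protocadherins are best studied, had 41 and 43 insertions over 6 genes and no open region. All marker counts are at the outermost gene end with more insertions. Whether that end holds the promoter in use was not checked, so a low count does not show a closed promoter.

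The members are known to lie in the same direction along the chromosome, with transcripts that start at the end of lower coordinate. Insertions within 500 bp of that end, called the start below, were counted for each member. Over all 57 starts there were 327 wild-type and 319 knockout insertions, with a median of 3 per gene in either library. As a scale, the starts of 16457 autosomal genes of known strand had a median of 14 insertions in either library, 51.2% of them overlapped an open region called on both libraries together, and 54.6% had at least 20 insertions summed. Among the protocadherins 6 of 57 (10.5%) overlapped an open region and 6 (10.5%) reached 20 insertions summed. The 5 genes above the median of all starts were Pcdhgc3, Pcdhac2, Pcdhgb6, Pcdhgc4 and Pcdhac1, 4 of them C-type. The 5 C-type genes together held 138 of the 327 wild-type insertions (42.2%, 36.8 to 47.8) and 144 of the 319 knockout insertions (45.1%, 39.6 to 50.8). This is a mean of 27.6 and 28.8 per C-type gene, against 3.63 and 3.37 per alternate gene. The latter mixes unlike sets on either side of the autosomal mean of 3.10 and 3.11 per kb. Medians per gene were 5 and 5 for alternate gamma, 2 and 2 for alternate alpha, and 2 and 2 for beta genes.

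**Figure D1:**
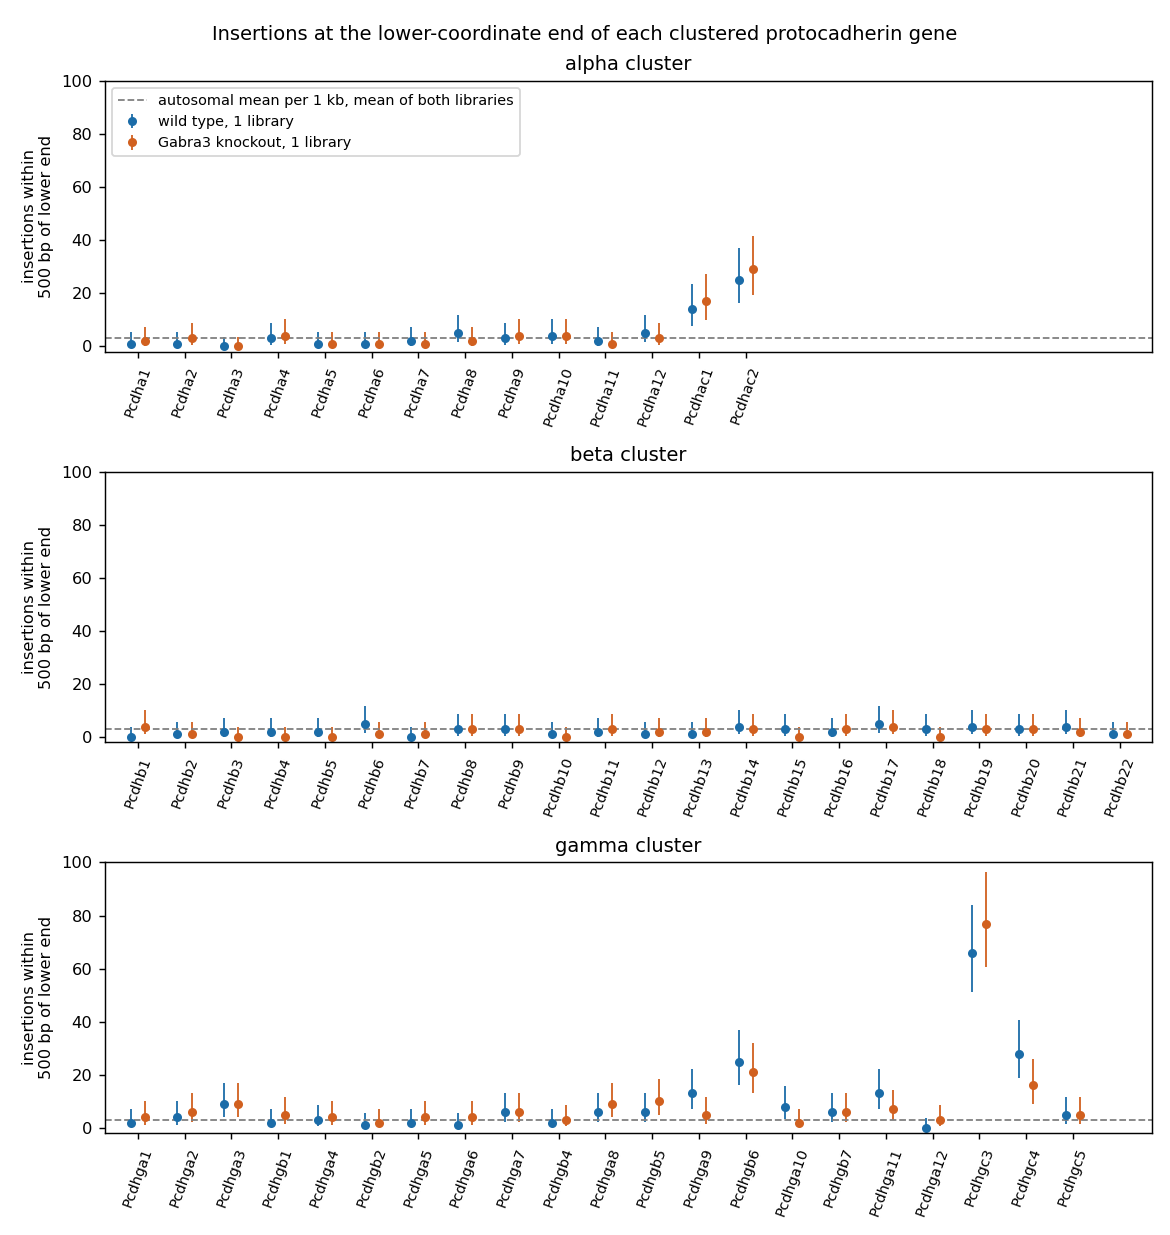
Insertions within 500 bp of the lower-coordinate end of each member, in chromosomal order, for the wild-type and the Gabra3 knockout library (1 each); bars are exact 95% Poisson intervals of the count, and the dashed line is the autosomal mean per kb. The highest points in both libraries are those of Pcdhgc3 (66 and 77), while the alpha alternate and beta genes lie at 0 to 5.

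Pcdhgc3, whose protein is known for shaping dendrites of cortical neurons, had the most insertions of all members, 66 in the wild-type library and 77 in the knockout library (log2 ratio 0.28, -0.21 to 0.78). Its summed count exceeded that of 70.9% of all starts. Pcdhac2, required for the even spread of serotonergic axons, was next with 25 and 29 (0.27, -0.55 to 1.11), above 56.7% of all starts. Both starts lay in open regions that were also called in each library alone, as did that of Pcdhac1, which had 14 and 17 insertions (0.33, -0.77 to 1.47). Pcdhgc4, the gamma isoform on which the survival of many interneurons depends, had 28 wild-type and 16 knockout insertions (-0.73, -1.73 to 0.19). The interval reached 0, and no open region was called there, although its 44 insertions summed exceed the 31 at Pcdhac1. Regions are called against the local mean where that is higher than the genome-wide mean. The 1 kb windows on either side of the one with its start held 13 and 9, and 14 and 16 insertions. A missing call at Pcdhgc4 thus does not mean fewer insertions than at a start with a call. Pcdhgc5, whose protein is known to bind GABA-A receptors, had 5 and 5 insertions and no open region, the fewest of the C-type genes and below the 20 insertions summed that were set for a call of 2-fold.

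The 18 alternate gamma genes held 109 wild-type and 110 knockout insertions, a median of 5 per gene in either library (log2 ratio of the sum 0.07, -0.32 to 0.47). Pcdhgb6 stood above the others with 25 and 21 (-0.19, -1.10 to 0.70) and had an open region of 600 bp, called in each library alone as well. Pcdhga11 had 13 and 7, which is just at the minimum of 20 for a ratio (-0.79, -2.40 to 0.60). Pcdhga3 (9 and 9) and Pcdhga9 (13 and 5) fell just below that minimum and overlapped weak open regions of 10 and 11 insertions; the region at Pcdhga9 was called in the wild-type library alone and not in the knockout library alone, and the one at Pcdhga3 in neither. The alternate gamma genes with the fewest insertions were Pcdhgb2 (1 and 2), Pcdhga12 (0 and 3), and Pcdhga6 and Pcdhgb4, with 5 insertions summed each. The A and B subfamilies, which alternate along the cluster, had medians of 10 and 9.5 insertions summed per gene.

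The alternate alpha genes were near or below the autosomal mean. The 12 genes Pcdha1 to Pcdha12 held 28 wild-type and 26 knockout insertions, 0 to 5 per gene in the wild-type library and 0 to 4 in the knockout library, and none overlapped an open region. Pcdha10 (4 and 4), Pcdha12 (5 and 3), Pcdha4 (3 and 4), Pcdha8 (5 and 2) and Pcdha9 (3 and 4) had the most, 7 or 8 summed. Pcdha3 had 0 in both libraries, which allows up to 3 insertions in each at this depth. Pcdha5 and Pcdha6 had 1 in each library.

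The 22 beta genes were equally sparse, with 52 and 39 insertions at their starts, 1 to 9 summed per gene and no open region (log2 ratio of the sum -0.35, -0.99 to 0.27). Pcdhb17 had the most, with 5 and 4, followed by Pcdhb14 and Pcdhb19, each with 4 and 3. Pcdhb7 (0 and 1) and Pcdhb10 (1 and 0) had the fewest. At 8 of the 22 starts 1 of the libraries had no insertion, and no fold is given for single beta genes. The ends of higher coordinate of the beta genes held 12 and 21 insertions, so that the starts had more in either library.

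The members of a cluster resemble each other, so reads that match several copies could be lost from the counts. At the beta starts none of the reads had a mapping quality under 10, the mark of such reads. At the alternate alpha starts the share was 12.7%, at the alternate gamma starts 0.851%, and at all starts of known strand 1%. The alpha share rests on few reads, which lay only at Pcdha10 (4 of 13 reads), Pcdha7 (2 of 5), Pcdha6 (1 of 3) and Pcdha11 (1 of 4). Counted over the whole clusters, reads under this quality made up 12.8% in beta, 10.1% in alpha and 1.69% in gamma, against 5.4% on the autosomes. With reads of any quality and all repeats kept, beta had 2.46 reads per kb and alpha 4.30, both libraries summed, against 7.33 per kb on the autosomes.

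Averaged over genes, insertions around the start were denser at the C-type genes than at the alternate genes, although single genes overlapped: Pcdhgb6, an alternate gene with 46 insertions summed, exceeded Pcdhgc4 (44), Pcdhac1 (31) and Pcdhgc5 (10), and Pcdhgc3 alone held 143 of the 282 C-type insertions. In the 500 bp before the start the C-type genes had 36.4 wild-type and 34.8 knockout insertions per kb and gene, and in the 500 bp after it 18.8 and 22.4. All starts of known strand had 50.3 and 48.0 before and 48.7 and 48.6 after. The highest 100 bp of the C-type profile lay directly before the start in both libraries, with 35 insertions in each. The alternate gamma genes had the same place of the highest 100 bp, with 26 and 28 insertions over 18 genes, and 5.11 and 5.56 per kb and gene in the 500 bp before the start. The alternate alpha genes had 1.83 and 1.67 there, and the beta genes 1.73 and 1.91, which is below the autosomal mean of 3.10 and 3.11 per kb. Both were still denser there than from 500 to 2000 bp before the start, though on few insertions. Alternate alpha had 11 and 10 insertions in the 500 bp against 22 and 9 in the longer stretch, and beta 19 and 21 against 21 and 35. In that stretch alternate alpha had 1.22 and 0.50, beta 0.64 and 1.06, alternate gamma 1.70 and 1.59, and C-type 5.20 and 3.33. In the 500 bp after the start alternate gamma had 63 and 60 insertions, against 46 and 50 in the 500 bp before it. Alternate alpha had 17 and 16 after against 11 and 10 before. These sets were thus denser after the start in either library, the reverse of the C-type genes, though the alpha counts are small. Beta had 33 and 18 after against 19 and 21 before, denser after the start in the wild-type library only. From 500 to 2500 bp after the start, where the large first exon lies, the levels were 9.5 and 11.2 for C-type, 4.00 and 4.17 for alternate gamma, 1.96 and 2.50 for alternate alpha and 2.25 and 2.32 for beta genes, against 9.71 and 9.63 at all starts.

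**Figure D2:**
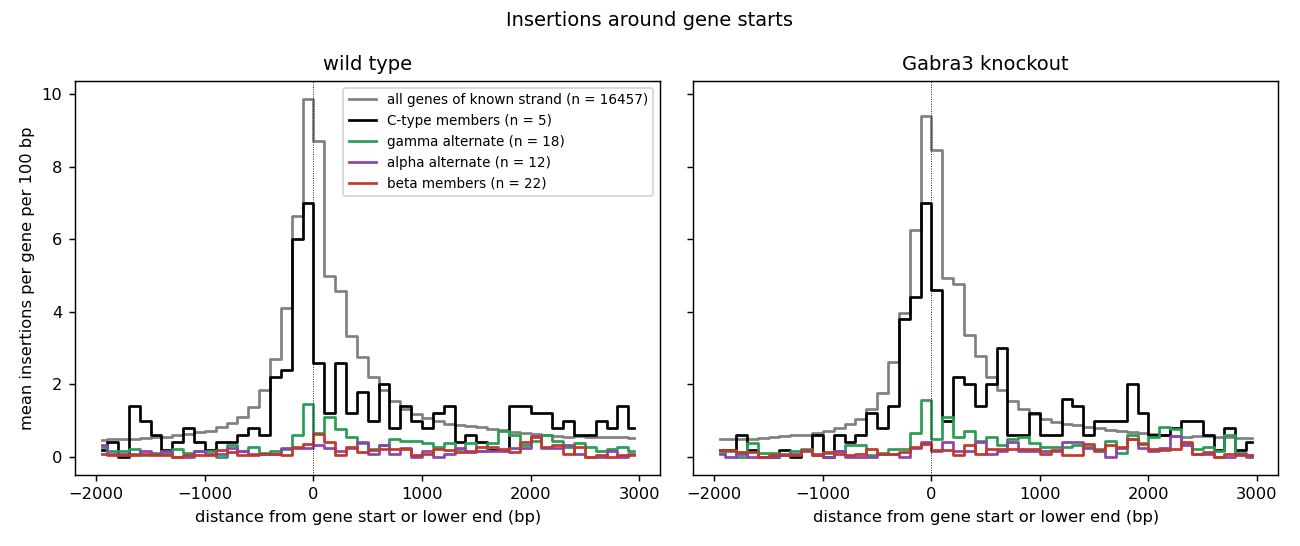
Mean insertions per gene in 100 bp steps (vertical axis) against the distance from the start (horizontal axis, bp) in the wild-type library (left) and the Gabra3 knockout library (right), for 5 C-type, 18 alternate gamma, 12 alternate alpha and 22 beta genes and 16457 genes of known strand. The C-type curve peaks directly before the start at 7 insertions per gene in both libraries, and the alpha and beta curves have no peak of that height.

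Between the libraries the measured ratios of the members were under 2-fold wherever the count allowed a ratio, though most of their intervals reached past 2-fold. Distinct windows of 500 bp either side of both ends of every member numbered 82, with an end shared by several genes counted once. They held 347 wild-type and 351 knockout insertions (log2 ratio 0.08, -0.14 to 0.29). Of these windows 6 had at least 20 insertions summed, all of them starts, and 0 of the 6 were 2-fold higher or lower in the knockout library. Among 12463 such windows at the ends of all protein-coding genes, 1.97% were 2-fold apart, 1.21% higher and 0.754% lower. The ratios of the 6 ran from -0.79 to 0.33 with a median of 0.04, beside 0.02 for all windows, and the interval of each included 0. Only the interval of Pcdhgc3 (-0.21 to 0.78) stayed within 2-fold in both directions, so a 2-fold difference at the other starts was not excluded. Across the 57 starts the log2 counts of the libraries had a Pearson r of 0.68; the starts share their library and depth, and most hold only a few insertions. The shared end of the alpha genes had 2 and 2 insertions and that of the gamma genes 4 and 8, too few for a ratio.

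Windows of 1 kb along the clusters showed where the remaining insertions lay. The clusters as a whole had log2 ratios of -0.05 (-0.23 to 0.14) for alpha, from 488 wild-type and 454 knockout insertions, 0.18 (-0.07 to 0.43) for beta, from 256 and 279, and 0.08 (-0.07 to 0.22) for gamma, from 783 and 792. Per kb this was 1.89 and 1.76 in alpha, 0.998 and 1.09 in beta and 4.35 and 4.40 in gamma, so that gamma lay above and the others below the autosomal mean in both libraries. Of 698 windows 18 had at least 20 insertions summed: 6 in alpha, 0 in beta and 12 in gamma. Counting only windows with a read of any quality, these were 2.59% of the alpha and 6.70% of the gamma windows, beside 3.35% on the autosomes. The fullest beta window held 7 and 6 insertions and lay 1.95 kb past the start of Pcdhb15. The next beta window, 2.04 kb past the start of Pcdhb18, held 8 and 2, and all others held 8 or fewer summed.

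**Figure D3:**
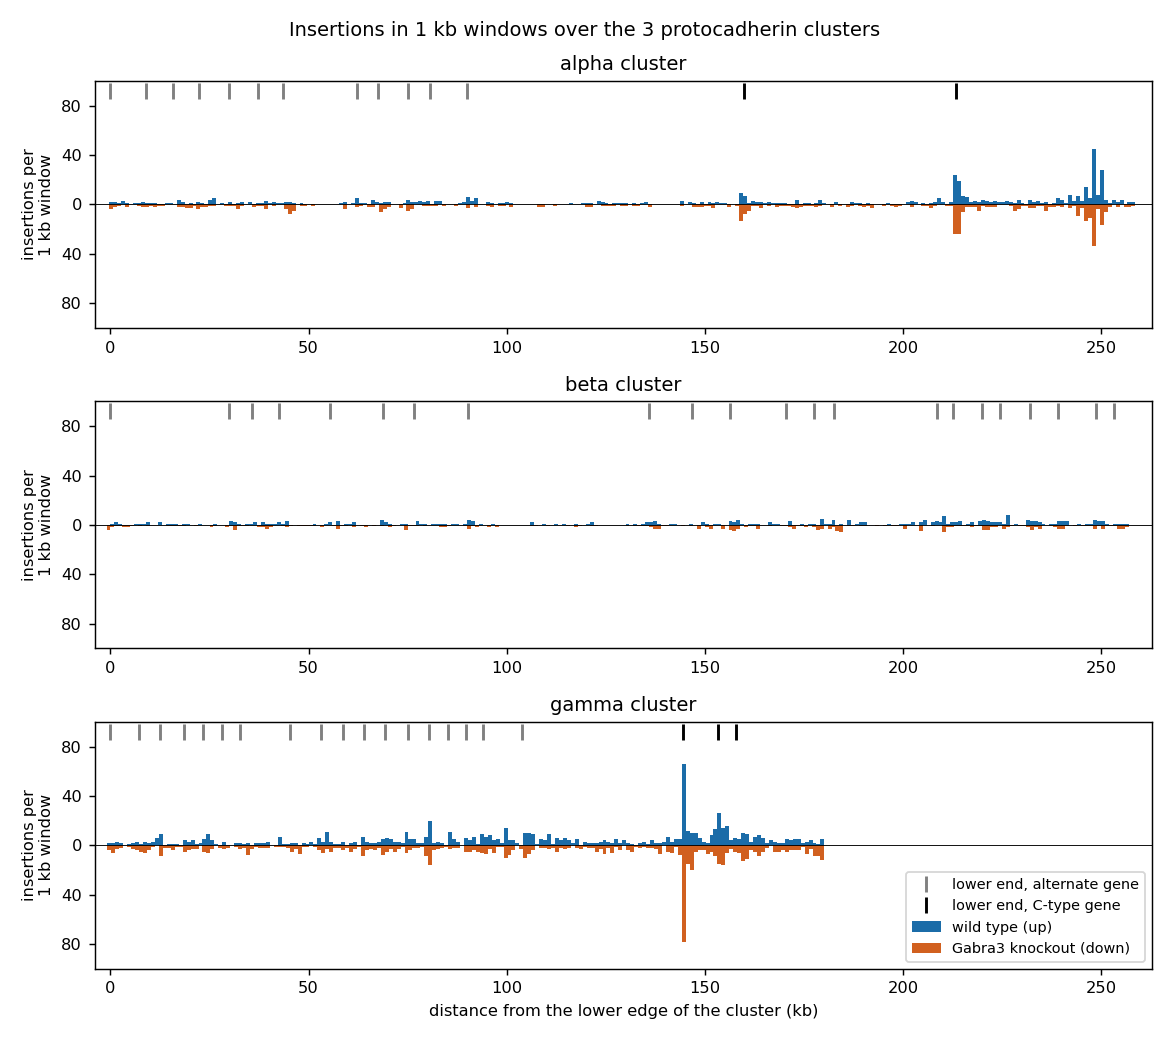
Insertions per 1 kb window (vertical axis) against the distance from the lower edge of each cluster (horizontal axis, kb), wild type upward and Gabra3 knockout downward; ticks at the top mark the starts of alternate (grey) and C-type (black) genes. In both libraries the tallest bar stands at the start of Pcdhgc3 (66 and 78) and the next close to the far end of the alpha cluster (45 and 34), the windows at the starts of Pcdhac2 (24 and 24), Pcdhgc4 (26 and 15) and the alternate gene Pcdhgb6 (20 and 16) are lower, and beta has no window above 8 in either library.

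The fullest window of the alpha cluster was not at a gene start. It lay 34.8 kb past the start of Pcdhac2 and held 45 wild-type and 34 knockout insertions (-0.34, -1.03 to 0.33). Within it was an open region of 500 bp (37178251 to 37178750; 40 and 29), 10.4 kb before the far end of the cluster, which was called in each library alone. Windows 2 kb to either side of that window held 14 and 13 (37176001 to 37177000) and 28 and 17 insertions (37180001 to 37181000; -0.64, -1.62 to 0.26). The other alpha windows with at least 20 insertions lay at the starts of Pcdhac2 (24 and 24, then 19 and 24 in the next window) and Pcdhac1 (9 and 13). The constant exons of the alpha cluster and enhancers within and beyond them are known from this stretch of the locus; their positions were not used here, and whether an open region coincides with one of them was not tested.

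In the gamma cluster the fullest windows were those of Pcdhgc3 (66 and 78), Pcdhgc4 (26 and 15), Pcdhgb6 (20 and 16), and 2 with 30 insertions summed: 1.42 kb past the start of Pcdhgc4 (14 and 16) and 2.09 kb past that of Pcdhgc3 (10 and 20). The last of these was 2-fold higher in the knockout library (1.02, -0.10 to 2.32), and 1 window between Pcdhgc4 and Pcdhgc5, 2.05 kb before the start of the latter, was 2-fold lower, with 16 and 6 insertions (-1.28, -3.00 to 0.07). These were 2 of the 18 windows with at least 20 insertions; on the autosomes 6.36% of 76231 such windows were 2-fold apart, 3.8% higher and 2.56% lower, and both gamma intervals included 0. With all autosomal insertions, or with gene end windows, as the scale, the window past Pcdhgc3 was no longer 2-fold apart.

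Open regions were called in alpha and gamma and not in beta, and others lay just outside the clusters. Alpha held 3 regions, beta 0 and gamma 5, or 11.6, 0 and 27.8 per Mb against 14.98 per Mb on the autosomes. The minimum of 20 insertions was met by 5 of the 8, and 0 of the 5 were 2-fold apart, beside 2.81% of all 24258 such regions (1.09% higher and 1.71% lower). Their ratios ran from -0.40 to 0.37. Between alpha and beta, 29.3 kb beyond the far end of alpha, a region of 700 bp (37217851 to 37218550) held 52 and 44 insertions (-0.18, -0.80 to 0.43), more than the region at any alpha start. Another lay 6000 bp before the start of Pcdhga1, with 22 and 22. Beyond the gamma cluster, inside Diaph1, a gene of an actin-nucleating formin, regions 10.4, 35.5, 38.5 and 41.9 kb past its far end held 41 and 43, 45 and 42, 45 and 43, and 32 and 26 insertions. These had ratios from -0.24 to 0.13, with intervals that included 0.

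Most neighbouring genes had higher counts. Other protein-coding genes within 200 kb or between the clusters numbered 15, leaving out Gm37013, Gm38666 and Gm38667, which run from an alpha start to the gamma end. At the end with more insertions 12 of the 15 (80%) had an open region, beside 50.6% of all protein-coding genes. The medians over the 15 genes were 73 in the wild-type and 74 in the knockout library. Diaph1 (175 and 189) and Ndufa2, a subunit of mitochondrial complex I (117 and 89), had the most. The windows of Ndufa2 and Ik overlap, as do those of Hars and Hars2 and those of Hdac3 and Rell2. Insertions in such an overlap count for both genes. Taf7, a subunit of the general transcription factor TFIID that lies between beta and gamma, had 78 and 74, while its neighbour Slc25a2 had 5 and 1. Of the 12 neighbours with at least 20 insertions 0 were 2-fold higher or lower, beside 1.55% of all 11893 genes counted this way (0.925% higher and 0.622% lower).

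The non-clustered protocadherins, single genes spread over the genome, had more insertions per gene than the alternate genes of the clusters, which are counted at their starts only. At the end with more insertions 8 of 12 (66.7%) had an open region, with medians of 16 and 13.5 insertions, beside 50.6% and medians of 13 and 13 for all protein-coding genes. Pcdh10 (57 and 52; -0.07, -0.64 to 0.49) and Pcdh17 (46 and 32; -0.46, -1.16 to 0.22) had the most. Of 7 with at least 20 insertions 2 lay above 0 and 5 below, and the median ratio was -0.35 beside 0.02 for all genes. Of these 7, 0 were 2-fold apart, beside 1.55% of all 11893 genes counted this way. Pcdh9, Pcdh12 and Pcdh15, the gene of the hair cell tip link that photoreceptors also carry, had 5 to 7 insertions summed.

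Of 19 genes that act on protocadherin promoters, those of CTCF, cohesin, its loaders and release factors, and of DNA and histone methylation, 14 (73.7%) had an open region, beside 50.6% of all protein-coding genes. The same number reached 20 insertions, with a median ratio of 0.06 and 0 genes 2-fold apart, beside 1.55% of all 11893 genes counted this way. The other 5 had 4 to 10 insertions summed, too few for a ratio: Rad21, a core cohesin subunit (5 and 3), Nipbl, the cohesin loader (0 and 4), Wapl (4 and 6), Stag1 (3 and 4) and Dnmt1 (3 and 2). These counts are at the outermost ends of each gene. Whether such an end holds the promoter in use was not checked, so a low count does not show a closed promoter. Smc3, a core subunit of cohesin, had 198 and 201 insertions, Pds5a, a cohesin regulator, 196 and 192, and Ctcf, the insulator protein that binds alternate promoters and their enhancers, 170 and 182 (0.16, -0.15 to 0.47). Smchd1, a repressor of the clusters, had 119 and 140 (0.29, -0.07 to 0.66), and Dnmt3b, a DNA methyltransferase that shapes the choice of alternate promoters, 59 and 71 (0.32, -0.19 to 0.85). Partners of the proteins at the membrane include the WAVE complex, adhesion kinases and the shedding protease. Of 14 such genes 11 had at least 20 insertions, beside 11893 of all 21887 protein-coding genes. Their median ratio was 0.08 beside 0.02, and 0 were 2-fold apart, beside 1.55% of those 11893. Wasf1, a WAVE subunit, had 222 and 251, and Adam10, the sheddase, 189 and 192. Abi1, another WAVE subunit, named after its values were seen, had 78 and 44 (-0.76, -1.33 to -0.22). Of the other genes of self-avoidance in the retina, Dscaml1 had 52 and 37 (-0.43, -1.08 to 0.20), Dscam 13 and 22 (0.80, -0.24 to 1.93), Megf10 20 and 13 and Megf11 10 and 10.

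**Figure D4:**
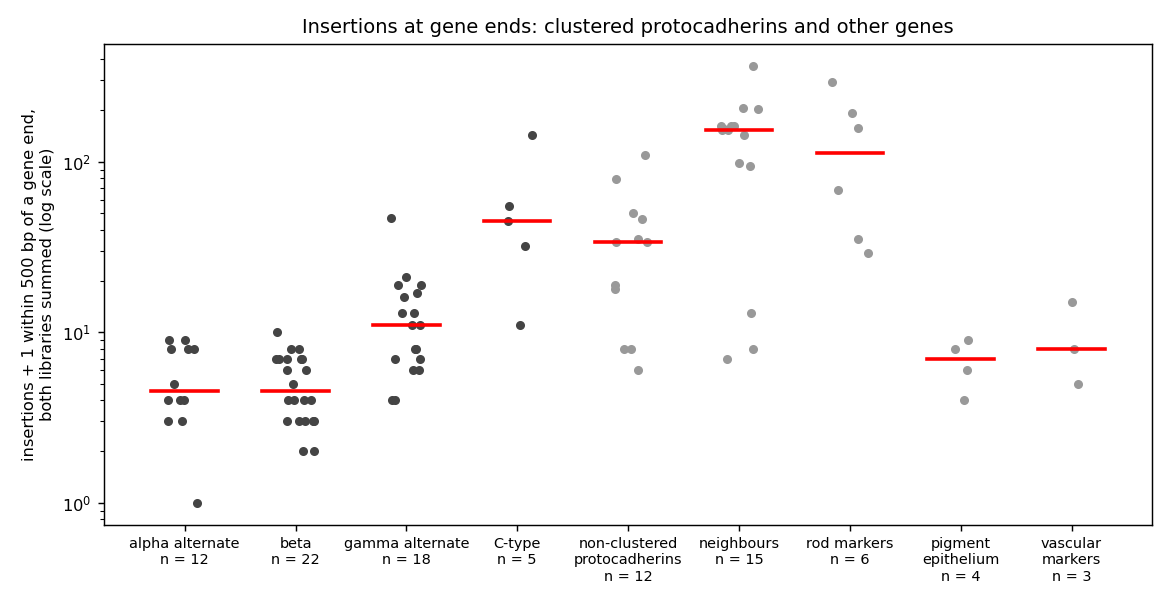
Insertions within 500 bp of a gene end, summed over both libraries (vertical axis, log scale, 1 added); each point is a gene and red lines are medians. The clustered protocadherins are counted at their starts and the other lists at the end with more insertions, which can only raise the latter; the alpha alternate and beta medians of 3.5 insertions lie below the pigment epithelium median of 6, and the C-type median of 44 lies below the rod median of 112.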

How the data were processed

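Per the submitters' processing notes, the authors worked with bedtools 2.23.0, BWA and Trimmomatic 0.33 on GRCm38 (mm10). The BWA version, the order of steps and the handling of duplicates were not given in the sources used. Each line of the authors' files is 1 aligned read of 75 bp, and its deposited score is the mapping quality (0 to 37), not normalized. The coordinate columns, another kind of value the authors deposited, give the start and end of the read.

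Reads with mapping quality of at least 10 (93.6% of 9170838 wild-type and 93.4% of 9038110 knockout reads) were reduced to their 5-prime ends, counted once per position and strand and shifted by 4 and -5 bp to the Tn5 site. Windows covered 500 bp either side of gene ends of a RefSeq table (GRCm38.p6), with ends within 100 bp of each other sharing 1 window, and a 1 kb grid. The table gives no strand; strands of other genes came from the RefSeq promoter table. Open regions were called on the summed insertions: 200 bp windows, moved by 50 bp, were kept where the Poisson p was under 1e-05 for the genome-wide or the local (10000 bp) mean, whichever was higher, and joined across gaps of up to 150 bp, which gave 36840 regions. Log2 ratios (pseudocount 0.5) were scaled to autosomal insertions in these regions, 1461980 and 1403372. Counts and ratios used numpy 2.4.6, pandas 2.3.3 and scipy 1.17.1, tested on simulated data. A ratio is called 2-fold apart only with at least 20 insertions summed. PCR repeats were removed by position only, so intervals cover counting error only.

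The members and lists were chosen with earlier results of these data known. Named are the C-type genes, the members with most and fewest insertions per cluster, those with at least 20, the shared ends, the fullest windows, and of each list the 2 genes with most insertions and any 2-fold apart. Some other list genes, the neighbouring open regions and the genes just under the minimum were named after their values were seen. 1 gene of the rod marker list is not reported here.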

Additional observations from a re-analysis of the deposited data

How the results depend on the processing

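With 1 library per genotype no replicate could be left out, and no paired analysis was possible because each genotype has 1 library. Settings changed the mapping quality minimum (30, or none), repeats (all kept), the shift, the scale, the window around gene ends (250 or 1000 bp either side) and the grid. Of 62 values for the clusters, windows, levels and counts, 57 stayed within the main interval or within 1.5 times the main count, and so did all 48 ratios of the 6 members with at least 20 insertions. The settings recount largely the same reads and the intervals of single members are wide, so this is a weak check. The widest ranges among the 6 were those of Pcdhga11 (-1.04 to -0.13) and Pcdhac2 (0.06 to 0.50), and the narrowest was that of Pcdhgc3 (0.22 to 0.32). The count of 1 kb windows 2-fold apart moved from 2 to 1 with all autosomal insertions or with gene end windows as the scale. It did so too with the grid moved by 500 bp and with windows of 2 kb. With 2 kb it was another window, at the shared end of the gamma genes (6 wild-type and 21 knockout insertions, log2 ratio 1.79). No interval and no share of all 2 kb windows 2-fold apart is given for it, so it was not set against a background. The count of gene end windows 2-fold apart moved from 0 to 1 with all reads kept, where Pcdhga9 had 14 and 6 reads (log2 ratio -1.05). Scaling to all autosomal insertions lowers every log2 ratio by 0.06, which gave 0.01 for all member windows and 0.01 for gamma. Chosen after the data were seen, open regions called in each library alone overlapped 5 starts in the wild-type and 4 in the knockout library, against 6 in both together. Most alternate starts hold under 10 insertions summed, and at that depth a 2-fold difference at a single gene was not detectable.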

Other observations

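The pseudogene Pcdhgb8, which lies between Pcdhga11 and Pcdhga12 and was left out because it is not protein-coding, had 14 wild-type and 10 knockout insertions at its start (log2 ratio -0.41, -1.76 to 0.85) and an open region. That is more in the sum than at 17 of the 18 alternate gamma genes with a protein product. Pcdhga12, the next gene, had 0 and 3 insertions at its start but 21 and 17 from 500 to 2500 bp past it, more in the sum than any other alternate gene of the 3 clusters.

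In 11 of the 18 alternate gamma genes the knockout library had more insertions at the start, in 4 fewer and in 3 the same number. Of all 16457 starts of known strand 6543 had more in the knockout library, 7724 fewer and 2190 the same number. These are unscaled counts, and most of those at the alternate gamma genes are small. A run of 5 neighbours from Pcdhga9 to Pcdhga11, chosen after its values were seen, held 65 wild-type and 41 knockout insertions. It included all of the alternate gamma genes with fewer in the knockout library. No test was made of it, since it was picked for its values.

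The table also lists 3 protein-coding genes that run from an alpha start to the gamma end, Gm37013, Gm38666 and Gm38667. Their lower ends lie within 100 bp of those of Pcdha4, Pcdha6 and Pcdha7 and held 3 and 4, 1 and 1, and 2 and 1 insertions.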
